A study of Rhodotorula toruloides with 18 samples.

Results

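Among the genes of the oil-storing yeast Rhodotorula toruloides, 36 were lower in the strain without Cbr1 than in the wild type in all 3 media tested, cellobiose, succinate and medium with no carbon source. They were taken from the 8484 genes of the deposited table, of which 7938 had a mean of at least 1 TPM (a transcript abundance scaled to the same total in every library). Members were chosen by their measured strain differences. A gene was a member when its group mean of log2(TPM + 1) was lower in the deletion strain by at least 1 on cellobiose and by at least 0.5 on succinate and without carbon. At most 60 genes were to be kept, and 36 met the rule. The filter on low values removed no candidate, as 36 genes met the 3 differences without it as well.

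The deletion strain, called cbr1D here, had the genotype yku70::HygR cbr1::NatR, and the wild type, called WT as in the labels, had yku70::HygR. Both strains thus lack yku70, which codes for a protein of non-homologous end joining and is often deleted in this yeast so that constructs integrate at the intended site, and both carry hygromycin resistance. The background was strain IFO0880. Cells from rich medium were washed and kept for 8 h in a mineral medium with 1% cellobiose, 1% succinate or no carbon source, and each of the 6 groups held 3 libraries described as biological triplicates. The labels do not say how many deletion clones were used.

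Cbr1 is a transcription factor named in the study's title for its part in carbon source use and carbon catabolite repression. Cellobiose is a disaccharide of glucose that fungi split with beta-glucosidases, either outside the cell or after uptake. Succinate is an intermediate of the citric acid cycle. Carbon catabolite repression is the process by which a preferred sugar keeps genes for other carbon sources and for starvation off. Of the identifiers of the 36 genes, 0 matched the 8171 genes of the annotation used here, which describes strain NP11. The genes are therefore given by identifier with no name or role, and the cbr1 transcript itself was not analysed here.

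TPM measures a share of the messenger RNA, so a lower level of a transcript and higher levels of the others cannot be told apart. The strain differences chose the genes and are given as a description, with no test. On cellobiose the difference of cbr1D minus WT ran from -4.25 to -1.02 on the log2(TPM + 1) scale, with a median of -2.13, against a median of 0.22 over the 7938 tested genes. On succinate it ran from -3.46 to -0.52, with a median of -0.84 against 0.47. Without carbon it ran from -3.19 to -0.57, with a median of -0.92 against 0.27. Cellobiose gave the largest difference for 33 of the 36 genes, succinate for RTO4_16716 and RTO4_13825, and no carbon for RTO4_15887. The rule itself asked for more on cellobiose than in the other media. Expressed as levels, the cbr1D mean was a median of 20.0% of the WT mean on cellobiose, 61.0% on succinate and 54.1% without carbon. In cbr1D 21 of the 36 genes were at 25% of the WT mean or less on cellobiose, 5 on succinate and 3 without carbon.

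**Figure D1:**
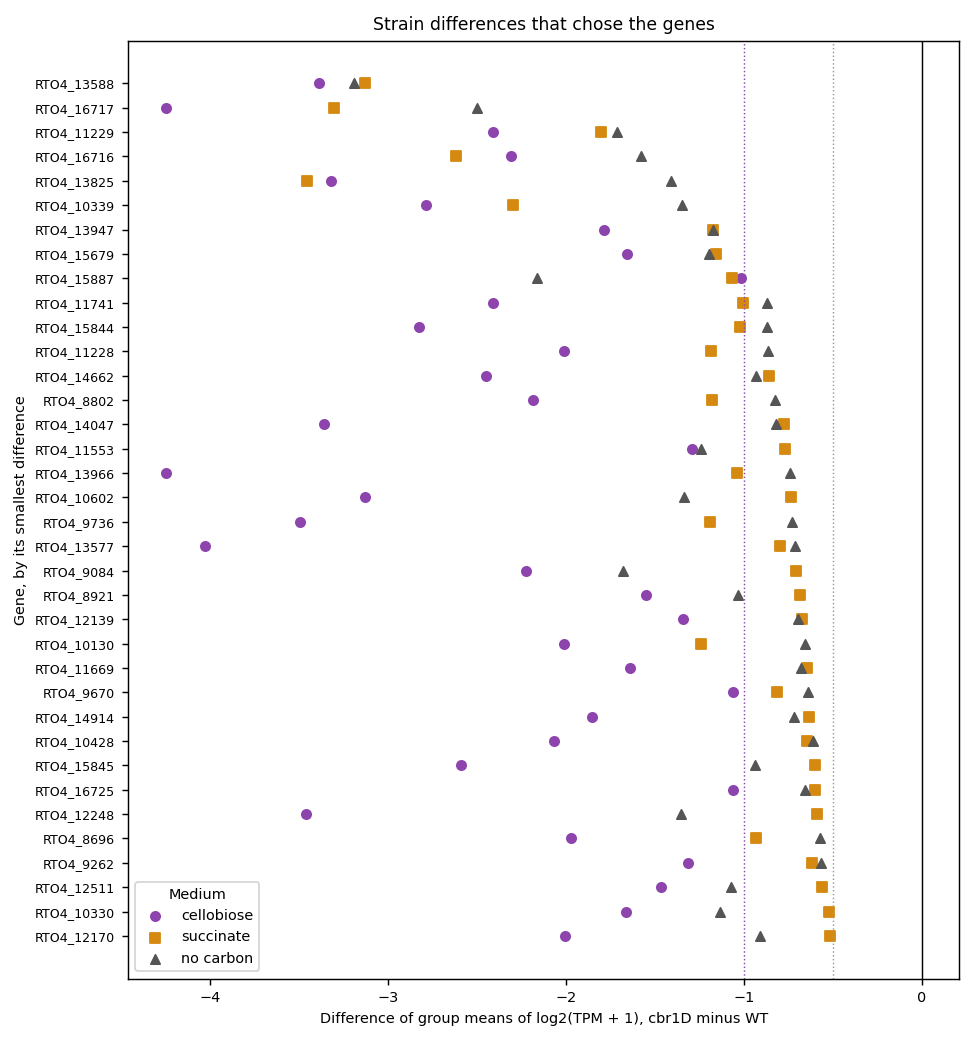
Difference of the group means of log2(TPM + 1), cbr1D minus WT, for the 36 genes (rows, ordered by their smallest difference) in each of the 3 media. Dotted lines mark the thresholds of the rule, -1 on cellobiose and -0.5 in the other media, and most cellobiose points lie to the left of the other points of their row.

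The replicates separated the strains for all members on cellobiose only. There every cbr1D library lay below every WT library for 36 of the 36 genes, where 21.8% of all tested genes did so. On succinate this was the case for 10 genes (0.529% of tested genes) and without carbon for 12 (5% of tested genes). The strain contrast chose the genes, so nothing is read from these shares. The strains were apart in all 3 media for 5 genes, RTO4_13588, RTO4_16717, RTO4_11229, RTO4_13825 and RTO4_11228.

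The 8 genes with the largest smallest difference are given in every library. RTO4_13588 had the most even difference among them. On cellobiose it had 2.09, 1.94 and 2.46 TPM in cbr1D, against 41.3, 39.5 and 20.1 TPM in WT. On succinate it had 2.03, 1.76 and 1.75 TPM in cbr1D, against 25.9, 30.2 and 17.4 TPM in WT. Without carbon it had 2.99, 2.27 and 1.88 TPM in cbr1D, against 39.6, 35.5 and 18.3 TPM in WT. All 9 cbr1D libraries lay between 1.75 and 2.99 TPM, and the lowest of the 9 WT libraries was at 17.4 TPM. The differences were -3.39 ± 0.32 on cellobiose, -3.13 ± 0.32 on succinate and -3.19 ± 0.32 without carbon (SE of the linear model). For each gene the model pools the spread over all 6 groups. The SE of a strain difference is therefore the same in every medium and does not show the spread within 1 medium.

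RTO4_16717 was more abundant and depended on the medium in WT. The levels on cellobiose were 41.8, 75.4 and 41.0 TPM in cbr1D, against 1265, 1288 and 581 TPM in WT. The levels on succinate were 20.8, 204 and 16.6 TPM in cbr1D, against 484, 624 and 249.7 TPM in WT. The levels without carbon were 23.3, 39.5 and 25.4 TPM in cbr1D, against 198, 279.5 and 83.9 TPM in WT. The strains did not overlap in any medium, although replicate 2 of cbr1D on succinate stood far above the other cbr1D libraries of that medium and close to the lowest WT library there. The differences were -4.25 ± 0.66, -3.31 ± 0.66 and -2.50 ± 0.66 in the same order of media (SE).

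RTO4_11229 was a gene of low level that also separated the strains throughout. On cellobiose it had 1.56, 1.46 and 1.21 TPM in cbr1D, against 9.78, 14.6 and 11.4 TPM in WT. Its succinate libraries held 2.05, 7.30 and 6.92 TPM in cbr1D, against 16.0, 17.0 and 26.8 TPM in WT. In medium lacking carbon there were 2.03, 3.47 and 6.61 TPM in cbr1D, against 10.7, 18.6 and 14.7 TPM in WT. The cbr1D libraries were lowest and most alike on cellobiose, and the difference there was -2.41 ± 0.38 (SE).

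RTO4_16716 had 8.89, 9.92 and 6.55 TPM in cbr1D, against 49.2, 53.6 and 35.3 TPM in WT on cellobiose. On succinate it had 2.64, 7.53 and 2.79 TPM in cbr1D, against 26.5, 36.5 and 25.3 TPM in WT. Its libraries without carbon held 19.7, 16.3 and 10.5 TPM in cbr1D, against 96.9, 73.3 and 14.1 TPM in WT. The strains were apart on both carbon sources and overlapped without carbon, where WT replicate 3 lay below cbr1D replicates 1 and 2. Its difference was largest on succinate, at -2.62 ± 0.50 (SE).

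RTO4_13825 had 4.06, 4.14 and 3.90 TPM in cbr1D, against 44.0, 59.5 and 45.7 TPM in WT on cellobiose. The levels on succinate were 1.68, 2.15 and 1.60 TPM in cbr1D, against 52.0, 53.4 and 9.07 TPM in WT. Without carbon it had 6.30, 5.96 and 3.59 TPM in cbr1D, against 23.0, 20.3 and 7.51 TPM in WT. WT replicate 3 was the lowest WT library on succinate and without carbon, and still lay above every cbr1D library of its medium. The difference was -3.46 ± 0.48 on succinate and -1.41 ± 0.48 without carbon (SE).

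RTO4_10339 was highest on cellobiose in both strains, with 203, 515 and 110.0 TPM in cbr1D, against 1836, 1600.4 and 1302 TPM in WT. Its succinate libraries held 36.8, 41.4 and 18.7 TPM in cbr1D, against 176, 233 and 89.9 TPM in WT. The levels without carbon were 89.2, 65.0 and 61.2 TPM in cbr1D, against 498, 291 and 40.9 TPM in WT. There, WT replicate 3 was the lowest of the 6 libraries, so the strains overlapped, and the difference of -1.35 ± 0.65 (SE) rested on WT replicates 1 and 2.

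RTO4_13947 and RTO4_15679 complete these 8 genes. RTO4_13947 had 5.68, 7.15 and 4.49 TPM in cbr1D, against 25.2, 20.6 and 20.7 TPM in WT on cellobiose. On succinate it had 6.56, 11.1 and 33.7 TPM in cbr1D, against 43.8, 36.6 and 20.7 TPM in WT, and cbr1D replicate 3 lay within the WT range. In medium lacking carbon there were 11.1, 13.5 and 18.2 TPM in cbr1D, against 17.2, 36.5 and 55.0 TPM in WT, again with an overlap. RTO4_15679 was one of the most abundant members, with 886, 746 and 1270.5 TPM in cbr1D, against 2959, 2627 and 3385 TPM in WT on cellobiose. The levels on succinate were 1670.1, 1877 and 2984 TPM in cbr1D, against 4018, 3473 and 7450.4 TPM in WT, which did not overlap. Its libraries without carbon held 417, 626 and 1908 TPM in cbr1D, against 910.3, 1475 and 4457 TPM in WT, where replicate 3 was the highest of its strain in both strains and the strains overlapped.

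**Figure D2:**
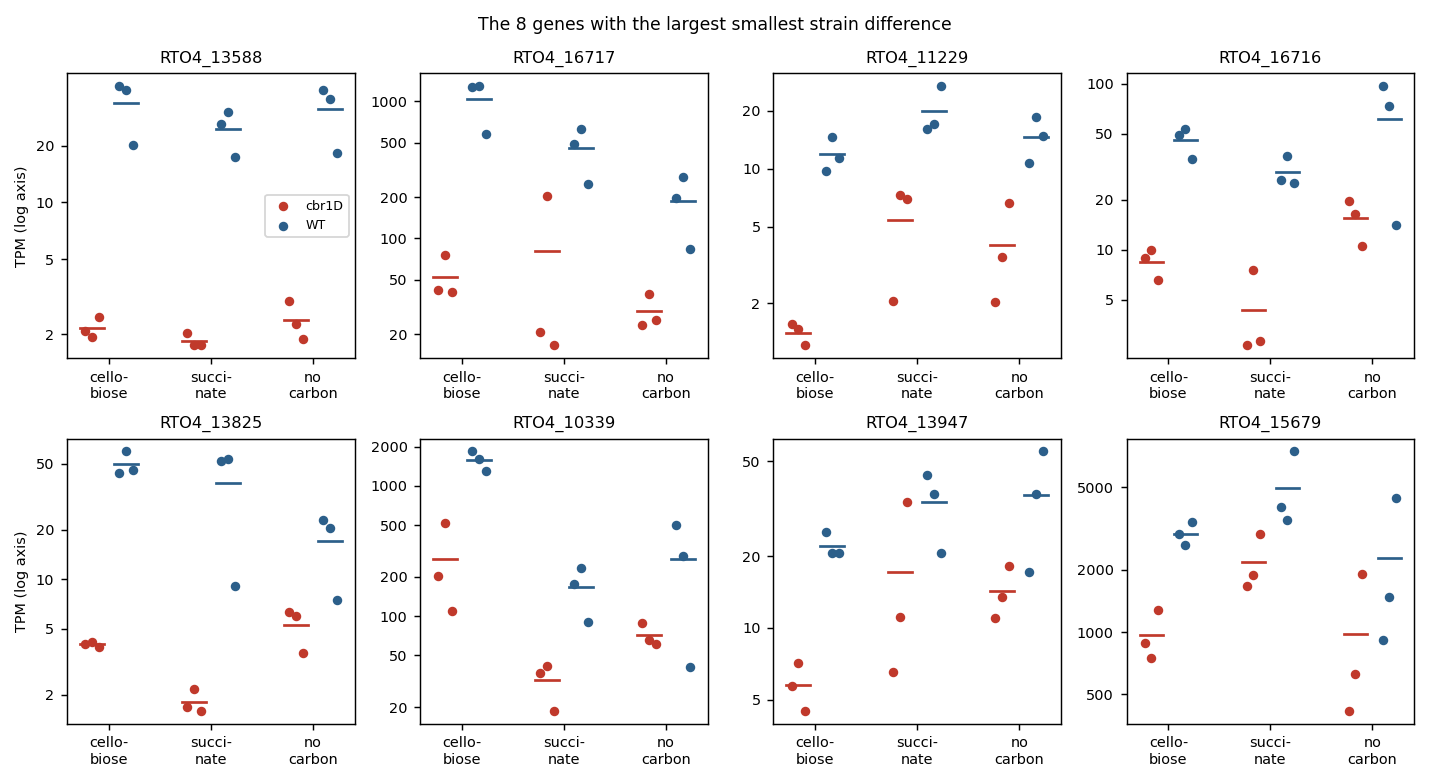
TPM on a log axis of the 8 genes with the largest smallest strain difference, with 1 point for each library (red, cbr1D; blue, WT; replicates 1 to 3 from left to right) and a bar at each group mean, n = 3 each. RTO4_13588 shows flat levels in both strains, whereas RTO4_10339 is highest on cellobiose in both.

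The members covered a wide range of levels. Their mean over 18 libraries ran from 2.63 TPM in RTO4_9670 to 2541 TPM in RTO4_8802, with a median of 86.7 TPM against 32.8 TPM over the tested genes, and 16 had a mean of at least 100 TPM. The 3 highest were RTO4_8802, RTO4_15679 and RTO4_12139. RTO4_8802 had 361, 399 and 410.2 TPM in cbr1D, against 2206, 1870.4 and 1353 TPM in WT on cellobiose. Its succinate libraries held 1378, 3415 and 6105 TPM in cbr1D, against 10696, 7754 and 4005 TPM in WT. Without carbon it had 685, 597 and 736 TPM in cbr1D, against 864, 1045 and 1857 TPM in WT. The strains were apart on cellobiose and without carbon and overlapped on succinate, where cbr1D replicate 3 exceeded WT replicate 3. RTO4_12139 had 766, 625 and 1362 TPM in cbr1D, against 2559.6, 2486 and 1676 TPM in WT on cellobiose, and its strain difference was -1.34 ± 0.45 there, -0.68 ± 0.45 on succinate and -0.70 ± 0.45 without carbon (SE). Summed over the 36 genes, the group means came to 3469 TPM in cbr1D and 13738 TPM in WT on cellobiose. On succinate they came to 12131 TPM in cbr1D and 22633 TPM in WT, and without carbon to 6513 TPM in cbr1D and 12489 TPM in WT.

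**Figure D3:**
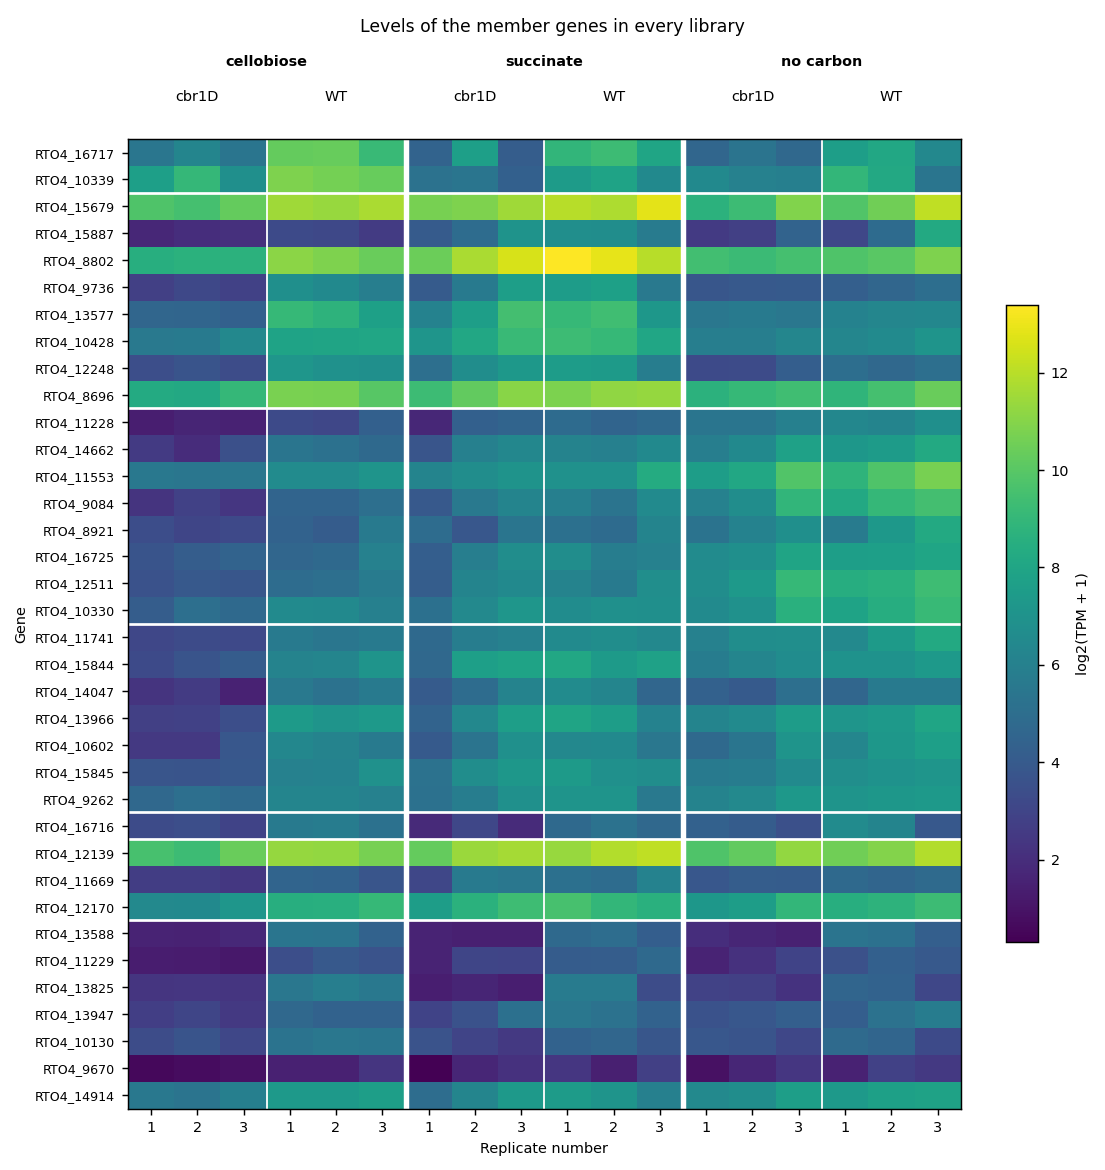
Level of the 36 genes as log2(TPM + 1) (colour) in each of the 18 libraries, with cbr1D left of WT in each medium. White horizontal lines separate genes by their medium effects, from genes higher on cellobiose at the top to genes with no call at the bottom, and the cbr1D libraries on cellobiose form the darkest block for most rows.

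The succinate libraries of cbr1D differed from each other for most of the members, and the membership of most genes rested on them. In cbr1D replicate 1 on succinate, 35 of the 36 genes lay below all 3 WT libraries (9.4% of tested genes), in replicate 2 there were 19 such genes (2.66% of tested genes), and in replicate 3 there were 10 (4.3% of tested genes). Replicate 1 was the lowest cbr1D library on succinate for 30 genes and replicate 3 the highest for 28. The median over all tested genes was instead lowest in replicate 3, at 24.7 TPM against 32.2 TPM in replicate 1 and 31.1 TPM in replicate 2. In replicate 3, 20 genes stood above the WT mean. RTO4_13577 is an example, with 67.1, 199 and 719 TPM in cbr1D, against 528, 656 and 146 TPM in WT. WT replicate 3 was the lowest WT library on succinate for 21 genes. Its median over all tested genes was low as well, at 15.5 TPM against 23.3 TPM in WT replicate 1 and 22.9 TPM in WT replicate 2. By replicate number, cbr1D was below WT for 36 genes in replicate 1 (29.1% of tested genes), 30 in replicate 2 (20.6%) and 19 in replicate 3 (18.1%). The rule used the means of these libraries, so nothing is read from the size of these counts. Against the order of most members, replicate 3 was the lowest cbr1D library on succinate for 5 genes. These were RTO4_13588, RTO4_16717, RTO4_13825, RTO4_10339 and RTO4_10130. RTO4_16716 was at 2.79 TPM in replicate 3 against 2.64 TPM in replicate 1. The shares of all tested genes with these orders of replicates are not given here. As a description, the median SD between the 3 cbr1D libraries on succinate was 1.05 for the members and 0.34 for all tested genes (log2 scale). A gene with 1 very low cbr1D library there meets the rule more easily. The part that the choice of genes plays in this spread was not tested.

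Without carbon, replicate 3 stood above both other replicates for 28 of the 36 genes in cbr1D and for 27 in WT. Most members thus shifted upward in replicate 3 of each strain. The shares of all tested genes with this order are not given here. Compared by replicate number, cbr1D was lower for 36 genes in replicate 1 (39.5% of tested genes), 36 in replicate 2 (30.2%) and 35 in replicate 3 (19.2%). Cellobiose gave 36 in each of the 3 replicates (37.1%, 35.7% and 47.7% of tested genes). These counts restate the strain contrast that chose the genes. Over all tested genes the shift was the other way, as replicate 3 had the lowest median TPM of its group in both strains without carbon. Those medians were 31.1 TPM in cbr1D and 20.9 TPM in WT, within a range of 15.5 to 42.1 TPM over the 18 libraries. The part that differences of culture or library play in these shifts was not tested.

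**Figure D4:**
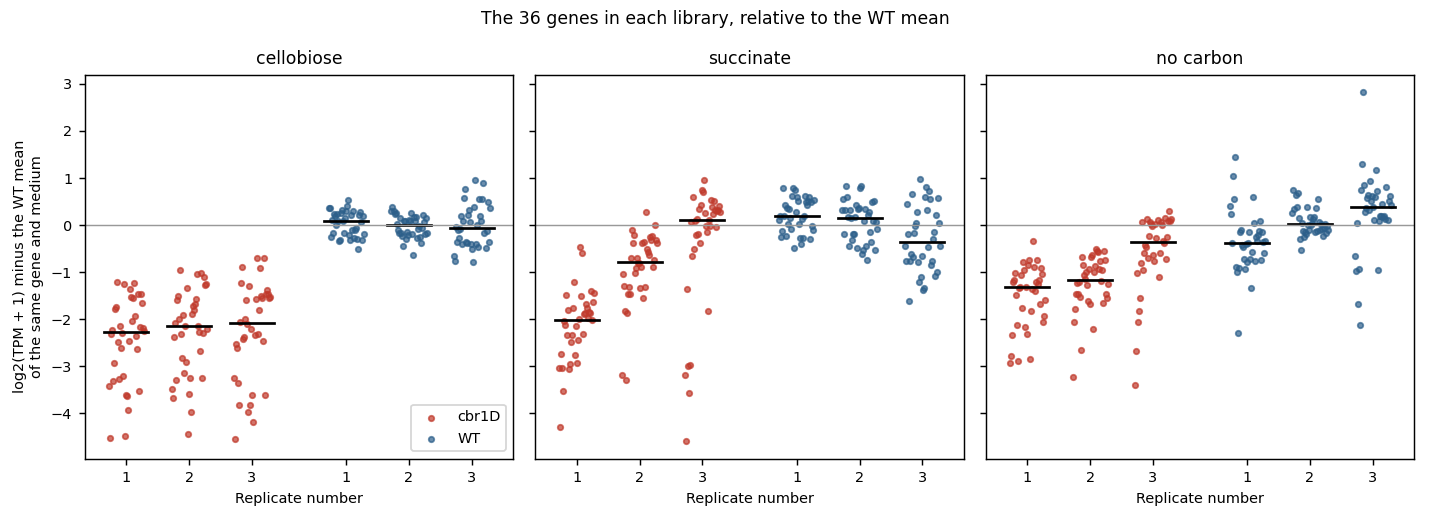
Level of each of the 36 genes in each library as log2(TPM + 1) minus the WT mean of the same gene and medium (red, cbr1D; blue, WT), with black bars at the median of the genes. On cellobiose the cbr1D libraries lie alike below WT, whereas on succinate cbr1D replicate 1 lies low and replicate 3 lies around the WT level apart from a few genes.

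Leaving out single libraries changed the list accordingly. With 1 of the 18 libraries left out in turn, 9 of the 36 genes met the rule every time, namely the 8 genes described first and RTO4_8802. Without cbr1D replicate 1 on succinate only 13 genes met it, and 23 members were lost. Without cbr1D replicate 3 on succinate 77 genes met it and all 36 members were among them. Without WT replicate 3 on succinate 60 genes met it, 30 of them members. The scaling of the libraries changed the list as well. After median-ratio scaling 202 genes met the rule, all 36 members among them, and after quantile normalization 130 did, 35 of them members.

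Many genes lay close to the thresholds. Within 0.1 of them were 10 members inside and 26 other genes outside. Just inside were RTO4_15887, with -1.02 on cellobiose, and RTO4_12170, with -0.52 on succinate. Just outside were RTO4_12087, with differences of -1.29, -0.50 and -1.41 on cellobiose, on succinate and without carbon, and RTO4_15137, with -3.51, -0.50 and -0.92. Both missed only the succinate threshold.

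RTO4_15887 and RTO4_12248 mark the ends of the balance between media. RTO4_15887 had its smallest difference on cellobiose, with 2.43, 3.07 and 3.30 TPM in cbr1D, against 8.36, 7.83 and 5.04 TPM in WT. The levels without carbon were 4.73, 5.75 and 20.8 TPM in cbr1D, against 7.59, 28.5 and 299.9 TPM in WT, so the difference of -2.17 ± 0.86 (SE) came mainly from WT replicate 3. RTO4_12248 had a cellobiose difference 5.89 times its smallest one. The levels on cellobiose were 9.90, 12.1 and 9.14 TPM in cbr1D, against 144, 119 and 111 TPM in WT. On succinate it had 33.3, 103 and 152 TPM in cbr1D, against 185, 172 and 56.7 TPM in WT, with an overlap.

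The effect of the medium was then tested as the average over both strains, a quantity other than the strain contrast that chose the genes. An average over strains is uncorrelated with their difference where both strains have the same spread. On succinate they did not, as the median SD of the members between replicates was 1.05 in cbr1D and 0.59 in WT on the log2 scale (n = 3 each), against 0.28 in cbr1D and 0.33 in WT on cellobiose and 0.55 in cbr1D and 0.60 in WT without carbon. Over all tested genes the median SD was 0.34 in cbr1D and 0.40 in WT on succinate. It was 0.20 in cbr1D and 0.30 in WT on cellobiose, and 0.29 in cbr1D and 0.52 in WT without carbon. Averages that include succinate or no carbon are therefore not taken as independent of the choice of genes. A linear model over all 7938 genes was fitted with limma, and a gene was called at a Benjamini-Hochberg adjusted p under 0.05 and an absolute log2 difference of at least 1. The average does not show whether both strains responded, so the response of each strain is given beside it as a description. In a member whose strain difference is larger on cellobiose, cbr1D alone can carry the average. The comparisons share libraries and are not independent of each other.

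On cellobiose against no carbon, 18 of the 36 genes were called (background 22.3%), 2 higher (background 4.89% of tested genes) and 16 lower (background 17.4%). The median over the members was -0.81 against -0.15 over all tested genes. Of the 16 lower genes, 12 were lower by at least 1 in each strain, and for the other 4 only cbr1D was lower by that much. The rule asked for a strain difference of 1 on cellobiose and 0.5 without carbon, so a low cbr1D level on cellobiose is in part what chose the genes, and the count of 16 is no independent result about them. On succinate against no carbon 17 were called (background 30.4%), 8 higher (background 5.01%) and 9 lower (background 25.4%), with a median of -0.15 against -0.49. The 9 lower genes were 25% of the members, near the background, so nothing is read from that count. Here the split followed the scaling. Median-ratio scaling, which brought the median of all genes to -0.01, gave 12 higher and 4 lower, and after quantile normalization the split was 12 higher and 5 lower. Of the 9 genes called lower in TPM, 4 were still called after median-ratio scaling and 5 after quantile normalization, and all 8 higher genes after both. On cellobiose against succinate 23 were called (background 8.44%), 1 higher (background 5.3%) and 22 lower (background 3.14%), with a median of -1.22 against 0.29. Of these 22, 8 were lower by at least 1 in each strain and 14 in cbr1D only. In WT, RTO4_13966 and RTO4_12248 were not lower at all, with 0.05 and 0.02. Since the rule asked for less on succinate too, the same limit holds for the count of 22.

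**Figure D5:**
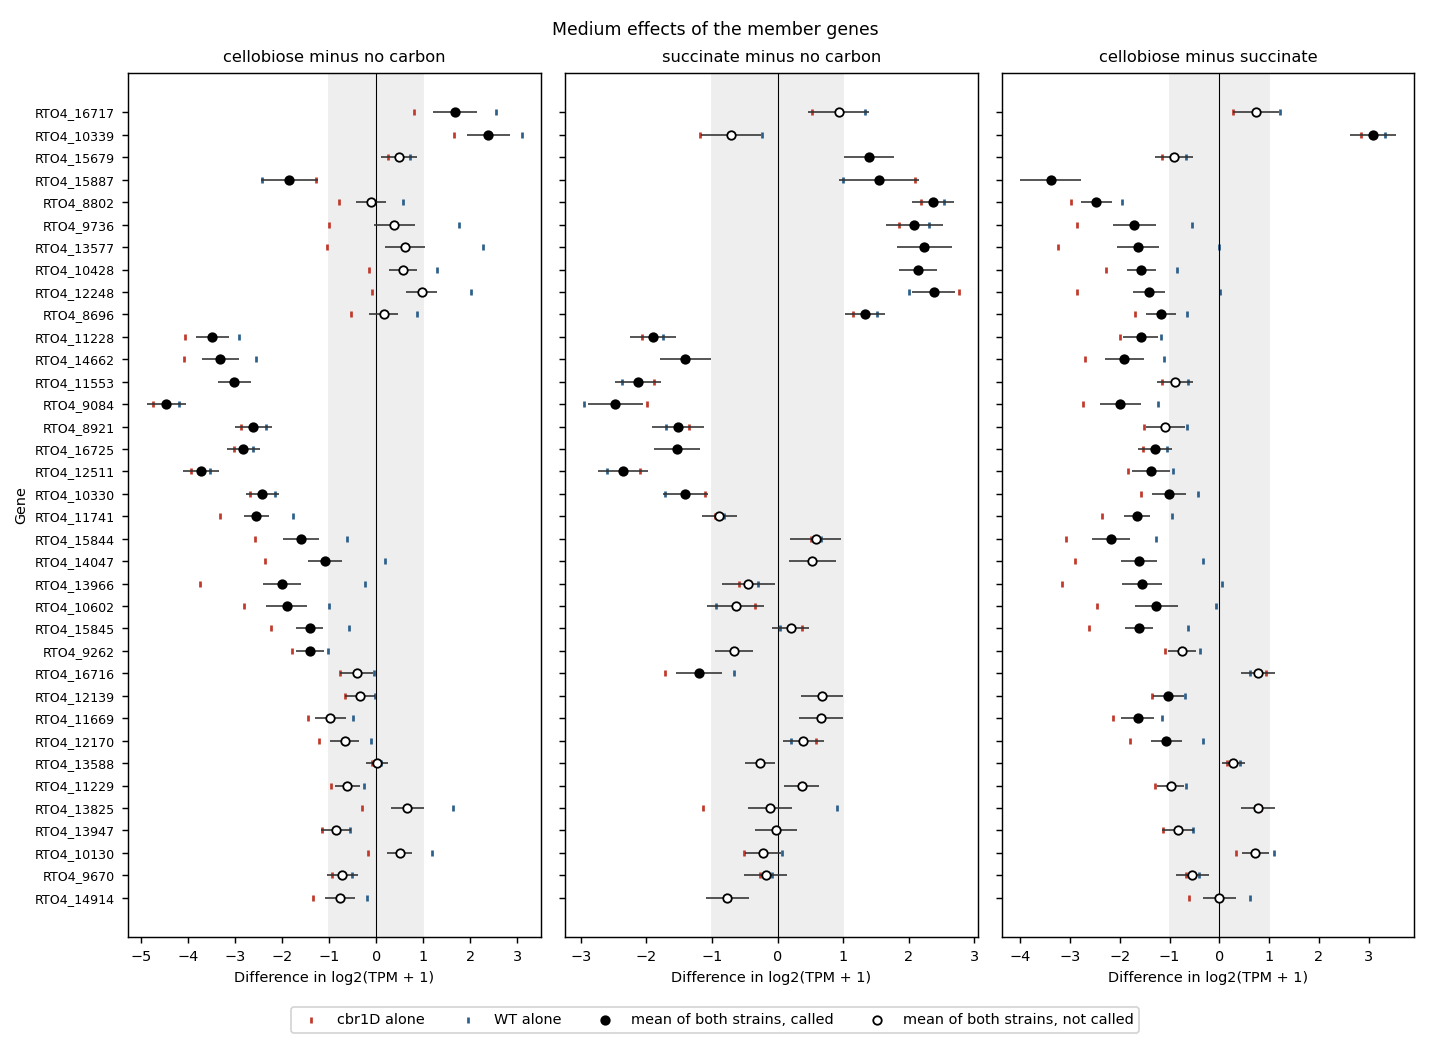
Medium effects of the 36 genes as differences in log2(TPM + 1), with the mean of both strains as circles (filled where called by limma, bars 1 SE) and each strain alone as ticks (red, cbr1D; blue, WT); grey marks differences under 1. The strains lie close together for succinate minus no carbon and apart for many genes in both comparisons with cellobiose, where cbr1D is mostly the lower one. The rule asked for a larger strain difference on cellobiose than in the other media, so this pattern is in part what chose the genes.

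RTO4_16717 and RTO4_10339 were the 2 members called higher on cellobiose than without carbon. They were 5.56% of the members, near the background of 4.89%, so nothing is read from their number. For RTO4_10339 the averaged difference was 2.38 ± 0.46 (SE; limma adjusted p = 0.000268), with 1.66 in cbr1D and 3.10 in WT. It was also the only member higher on cellobiose than on succinate, by 3.09 ± 0.46 (SE; limma adjusted p = 0.00023). For RTO4_16717 the averaged difference was 1.67 ± 0.46 (SE; limma adjusted p = 0.00624), with 0.80 in cbr1D and 2.55 in WT. Both genes thus had a higher mean level on cellobiose than without carbon in cbr1D too, at a level below WT.

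The genes that were higher on succinate than without carbon numbered 8, and 7 of them were higher by at least 1 in each strain. They were RTO4_15679, RTO4_15887, RTO4_8802, RTO4_9736, RTO4_13577, RTO4_10428, RTO4_12248 and RTO4_8696. The call of RTO4_15887 was kept under 19 of 30 alternatives. For RTO4_12248 the averaged difference was 2.38 ± 0.33 (SE; limma adjusted p = 5.13e-06), with 2.76 in cbr1D and 2.00 in WT. For RTO4_8802 it was 2.37 ± 0.32 (SE; limma adjusted p = 4.54e-06), and all 6 succinate libraries lay above the 3 libraries of the same strain without carbon. RTO4_13577 had 2.24 ± 0.42 (SE; limma adjusted p = 0.000162). On cellobiose the strains parted for most of these genes, a contrast that the rule used to choose them. Against no carbon the median of the 8 was -0.66 in cbr1D and 1.08 in WT. RTO4_13577 had 23.4, 22.4 and 19.2 TPM in cbr1D, against 533, 439.6 and 212 TPM in WT on cellobiose. In medium lacking carbon there were 44.4, 48.4 and 44.3 TPM in cbr1D, against 68.0, 77.5 and 81.6 TPM in WT. As averages over both strains, all of the 8 genes but RTO4_15679 were also called lower on cellobiose than on succinate. Among them, RTO4_8802 and RTO4_15887 had log2 differences of -2.47 ± 0.32 and -3.39 ± 0.61 (SE, with limma adjusted p = 5.16e-05 and 0.00112). Over the 8 genes the median of this response was -2.86 in cbr1D and -0.65 in WT. In WT alone RTO4_13577 and RTO4_12248 had -0.01 and 0.02, so cbr1D carried their averages.

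Another 8 genes fell on both carbon sources against no carbon, RTO4_11228, RTO4_14662, RTO4_11553, RTO4_9084, RTO4_8921, RTO4_16725, RTO4_12511 and RTO4_10330. All 8 did so by at least 1 in each strain. The share of all tested genes called lower in both comparisons is not given here, so nothing is read from their number. On succinate the calls of RTO4_14662, RTO4_8921, RTO4_16725 and RTO4_10330 were lost after median-ratio scaling. RTO4_9084 had the largest such change on cellobiose, -4.46 ± 0.42 (SE; limma adjusted p = 4.05e-08), and -2.47 ± 0.42 on succinate (SE; limma adjusted p = 5.03e-05). It had 3.79, 6.11 and 4.24 TPM in cbr1D, against 21.8, 22.2 and 33.4 TPM in WT on cellobiose. The levels on succinate were 14.4, 46.5 and 73.1 TPM in cbr1D, against 61.5, 39.2 and 92.1 TPM in WT. Its libraries without carbon held 66.1, 102 and 484 TPM in cbr1D, against 291, 520.0 and 721 TPM in WT. The level in cbr1D on cellobiose was thus the lowest of the 6 groups. RTO4_12511 changed by -3.73 ± 0.38 on cellobiose and -2.35 ± 0.38 on succinate (SE; limma adjusted p = 1.45e-07 and 3.67e-05). RTO4_11228 changed by -3.48 ± 0.35 on cellobiose (SE; limma adjusted p = 1.18e-07) and RTO4_11553 by -2.13 ± 0.36 on succinate (SE; limma adjusted p = 4.73e-05). The strain difference of these 8 genes had a median of -1.61 on cellobiose, -0.69 on succinate and -1.05 without carbon.

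A further 7 genes were lower on cellobiose than without carbon and not called on succinate. They were RTO4_11741, RTO4_15844, RTO4_14047, RTO4_13966, RTO4_10602, RTO4_15845 and RTO4_9262. The share of all tested genes with this pattern is not given here either. The median response of the 7 to cellobiose was -2.58 in cbr1D and -0.61 in WT, so cbr1D carried most of it. This gap is made of the strain contrasts that chose the genes, and was not tested. RTO4_14047 was not lower in WT, with a response of -2.35 in cbr1D and 0.19 in WT, and its call was lost under both other scalings. RTO4_13966 had the largest gap between the strains. On cellobiose it had 5.91, 6.08 and 9.81 TPM in cbr1D, against 170.0, 132 and 159 TPM in WT. Without carbon it had 72.5, 94.7 and 183 TPM in cbr1D, against 136, 168 and 258 TPM in WT. The response to cellobiose was -3.75 in cbr1D and -0.24 in WT, where the media overlapped. RTO4_15844 was lower on cellobiose than on succinate by -2.18 ± 0.39 as a log2 difference (SE; limma adjusted p = 0.00102), with 25.6, 203 and 233 TPM in cbr1D, against 277, 174 and 217 TPM in WT on succinate, where cbr1D replicate 1 stood apart from the other cbr1D libraries.

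Of the remaining 11 genes, RTO4_16716 was lower on succinate than without carbon, a call lost under both other scalings, and RTO4_11669, RTO4_12139 and RTO4_12170 were called only between cellobiose and succinate. No medium effect was called for 7 genes, RTO4_13588, RTO4_11229, RTO4_13825, RTO4_13947, RTO4_10130, RTO4_9670 and RTO4_14914. Shares of all tested genes with these patterns are not given here, so the numbers are a description. For RTO4_13588 the averaged differences were 0.01 ± 0.23, -0.27 ± 0.23 and 0.28 ± 0.23 for cellobiose against no carbon, succinate against no carbon and cellobiose against succinate (SE). The 3 genes with the largest smallest strain difference thus included RTO4_13588 and RTO4_11229, which had no called medium effect, and RTO4_16717, which was higher on cellobiose.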

How the data were processed

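Messenger RNA of 18 cultures was profiled by poly-A enrichment and Illumina sequencing, per the labels' protocols. The deposited values are TPM for 8484 genes, made by the authors, and each column summed to 1000000. Salmon 1.10.0 is named in the submitters' processing notes. The genome build, annotation and gene lengths behind the TPM are unstated here. TPM does not retain the number of reads, so the depth is unknown and intervals that need it are left out.

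Each column was assigned through its library name. Values were transformed to log2(TPM + 1), which understates the change of genes with low values. The 7938 genes that averaged 1 TPM or more were fitted with limma 3.58.1 in R 4.3.3 (1 mean for each group, empirical Bayes with a trend, all 18 libraries), and p-values were adjusted over all of them. Tested on simulated data in which 1 medium moved 200 genes by 2 on the log2 scale, 98% to 99.5% were recovered per comparison and 1.51% to 2.93% of calls were false. The call threshold was 1, and 670 to 2417 genes were called in the data. These rates therefore do not describe genes near the threshold.

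The members, lists and tests were chosen with earlier results of these data known. Genes were named by rule: the 8 with the largest smallest strain difference, up to 3 called members in each direction of each medium comparison, the 3 most abundant, those next to the thresholds and those with the extreme ratios of cellobiose to smallest difference. Any other gene was singled out with its values known. Alternatives were pseudocounts of 0.1 and 5 TPM, other filters and scalings, the replicate block, other variance models and leaving out each library. The labels call the replicates biological. The p-values set each averaged difference against the spread between these libraries, pooled over the 6 groups, and do not show the spread within 1 group.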

Additional observations from a re-analysis of the deposited data

Results flagged for a closer look

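For 2 of the 36 genes the strains moved in opposite directions on cellobiose against no carbon, with every cellobiose library of a strain on the same side of every library of that strain without carbon. RTO4_9736 changed by -1.003 in cbr1D and by 1.77 in WT on the log2(TPM + 1) scale, a difference between the responses of -2.77. RTO4_13577 changed by -1.05 in cbr1D and by 2.27 in WT, a difference of -3.32. These differences between responses were not tested, because the strain contrasts they are made of chose the genes. On succinate against no carbon and on cellobiose against succinate, 0 genes met this criterion. The share of all tested genes that met it is not given here, so nothing is read from these counts.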

How the results depend on the processing

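The counts of members called for a medium effect stayed within 1.5 times of the reported value under all 30 alternatives, with 17 to 20 for cellobiose against no carbon, 15 to 20 for succinate against no carbon and 16 to 26 for cellobiose against succinate. Leaving out single libraries gave 17 to 19, 16 to 20 and 16 to 25. The genes named by rule for their medium effect were called in the same direction under all of these. Of all called members, 16 of 18, 11 of 17 and 16 of 23 in the same order of comparisons kept their call under all 30. After median-ratio scaling 4 of the 9 genes lower on succinate than without carbon were still called. For cellobiose against succinate the lowest count, 16, came without cbr1D replicate 3 on succinate, and again with both succinate replicate 3 libraries left out, an alternative chosen after seeing the data. The number of genes that met the membership rule was less stable. It was 202 after median-ratio scaling, 130 after quantile normalization and 82 with both succinate replicate 3 libraries left out, and leaving out single libraries gave 13 to 77; the cause was not tested. When replicate numbers entered as a block, the counts of called members were 18, 17 and 24. The deviations of same-numbered libraries from their group means correlated by more than 0.1 in 23 of 45 pairs, with r from -0.345 to 0.686 across genes. All 3 same-numbered pairs did so in 4 of 15 pairs of groups, among them cbr1D and WT without carbon with 0.236 to 0.686, but not for all pairs of groups in any of the 3 medium comparisons, so the numbers were not taken to pair the libraries; 4 of 18 libraries correlated best with their own number in the other strain of the medium. The depth is unknown, so what it limits cannot be given.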

Other observations

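Among the 36 genes, 3 pairs had consecutive identifier numbers. These were RTO4_16716 and RTO4_16717, RTO4_15844 and RTO4_15845, and RTO4_11228 and RTO4_11229, noticed after their values were seen. Whether the genes of a pair lie side by side was not tested, as the sources used here pair the identifiers with no positions. RTO4_15844 and RTO4_15845 had strain differences of -2.83 and -2.59 on cellobiose, -1.02 and -0.60 on succinate and -0.87 and -0.94 without carbon (log2, cbr1D minus WT). RTO4_16716 and RTO4_16717 differed in level, with means over 18 libraries of 27.5 and 307.8 TPM. Their responses to cellobiose against no carbon were -0.41 ± 0.35 and 1.67 ± 0.46 as the mean of both strains (SE). Only that of RTO4_16717 was called. RTO4_11228 and RTO4_11229 had responses of -3.48 ± 0.35 and -0.61 ± 0.27 in that comparison (SE), and only that of RTO4_11228 was called.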
